A study of Mus musculus with 165 samples.

Results

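The proteasome subunit genes are the genes that encode the building blocks, assembly partners and regulators of the proteasome. Members were the rows of both count tables whose symbol is Psm, a letter from a to f, a number and at most 1 further letter. The 3 immunoproteasome genes Psmb8, Psmb9 and Psmb10 and pseudogenes were left out by the rule. It found 42 members among 55471 gene rows. The rule itself uses no measured value. They were 8 genes of the 20S alpha ring, 8 of the 20S beta ring, 6 of the 19S ATPase ring, 11 other 19S subunits, 3 assembly chaperones of the 19S particle and 6 activators and inhibitors. The libraries came from the brain and liver of male C57BL/6J/Ukj mice, an inbred strain, that were kept for aging and, as far as the labels say, received no treatment and carried no transgene. The brain was sampled from 15, 16, 16, 17 and 18 mice at 3, 9, 15, 24 and 28 months, and the liver from 16, 16, 16, 17 and 18. Of 83 mice, 82 gave both tissues. Libraries were made from polyadenylated RNA of the whole tissue in 3 preparations, called preps, and each prep held every age.

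The proteasome degrades proteins that carry ubiquitin chains. Its core is a barrel of alpha and beta rings, in which Psmb5, Psmb6 and Psmb7 encode the subunits that cut peptide bonds. A regulatory particle caps the barrel. Its ATPase ring, encoded by Psmc genes, unfolds substrates and pushes them into the barrel, and its Psmd subunits bind ubiquitin and remove it. Psme1 and Psme2 encode an alternative cap, PA28, that is induced by interferon, while Psme3 and Psme4 encode nuclear activators and Psmf1 a protein first known as an inhibitor. When proteasome activity falls, the transcription factor encoded by Nfe2l1 is known to raise subunit genes together through antioxidant response elements in their promoters.

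Total counts per library ran from 11.5 M to 73.4 M (M is the mega prefix) in the brain and from 5.82 M to 57.5 M in the liver. The 8 brain markers summed to 9900 to 17380 CPM (a gene's counts per 1 M counts of the library, scaled by TMM factors) in brain libraries and to at most 269.9 CPM in the liver. The 8 liver markers summed to at least 31050 CPM in the liver and at most 5933 CPM in the brain, in a list that holds Ttr, which the choroid plexus also makes. Libraries that stand apart were taken, after seeing the data, as the 2 per tissue with the lowest median correlation with the others. In the brain these were 28 months replicate 15 (r = 0.80, 11.5 M counts, prep 3) and 24 months replicate 13 (r = 0.93), while the others had a median r of at least 0.979. The 31 core members are the alpha, beta, ATPase and other 19S subunits without Psma8 and Psmb11. Of these, 28 were higher in the first library than in every other 28-month brain. Over all 31 the median was 2.74 times the mean of the others, and the highest 7.20 times for Psmb4. In the second library 29 of 31 were higher than in every other 24-month brain, and the median over all 31 was 2.02 times. The core members below the others' mean in the first library were Psmc6 (3498 bases of exon), Psmd1 (7265 bases) and Psmd11 (6383 bases), at 0.791, 0.889 and 0.983 times the others. In the second library Psmd1 and Psmd11 stood at 0.674 and 0.781 times and Psmc6 at 1.56 times. Psmb4 (1951 bases) stood at 7.20 and 2.83 times, but longer genes rose too, among them Psmc2 (5031 bases) at 2.98 and 1.97 times and Psmb1 (4595 bases) at 4.09 and 2.47 times. Over the 31 core members of 1 library, Spearman's rho between this ratio and exon length was -0.305 in the first and -0.431 in the second, as a description. RNA quality was not tested. The liver libraries set apart, 24 months replicate 13 and 28 months replicate 9, were lower, at a median of 0.836 and 0.764 times the others. The main counts and most brain values of named genes are given with and without them.

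In the old liver nearly every proteasome gene was lower. Between 28 and 3 months, 40 of 41 tested members passed the test (edgeR quasi-likelihood test, Benjamini-Hochberg adjustment over all genes, adjusted p under 0.05), 36 of them lower and 4 higher. Over all 15579 liver genes tested, 61.9% were called, 31.9% higher and 30% lower. The median log2 fold change of the members was -0.29, against 0.01 over all tested genes. Psmb11, the beta subunit of the thymus, held at most 2 counts in any 28-month liver library and was not tested. All 7 tested beta genes, all 6 ATPase genes and all 11 other 19S subunits fell, as did 7 of 8 alpha genes. The 31 core members all fell, at log2 fold changes between -0.17 for Psma7 and -0.61 for Psmd11. In bulk tissue, fewer cells of a type and less RNA per cell cannot be told apart.

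Psmd11 (chr11:80428615-80473248, plus strand, GRCm38) encodes a lid subunit known to promote assembly of the complete proteasome, and it had the lowest fold change in the liver. At 3 months its lowest, median and highest liver values were 98.6, 126 and 134 CPM. At 28 months they were 52.5, 78.8 and 103 CPM. The old livers were lower, and the 2 ranges overlapped between 98.6 and 103 CPM. The 16 young livers had a mean of 121 CPM with an SD of 12.4, and the 18 old ones 78.9 CPM with an SD of 14.3. On the log2 scale the fitted change was -0.61 ± 0.06 (± SE here and below, adjusted p = 2.11e-14 in edgeR).

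Psmd2 encodes a large scaffold subunit at the base of the regulatory particle. It ranged from 192 to 233 CPM with a median of 209 CPM in 3-month livers, and from 105.5 to 178 CPM with a median of 158 CPM at 28 months. The groups did not overlap, and the log2 fold change was -0.47 ± 0.04 (adjusted p = 8.23e-15 in edgeR). Psmc2, an ATPase of the ring, went from 82.5 to 111 CPM with a median of 92.7 CPM to a range of 46.9 to 80.0 CPM with a median of 70.9 CPM. These ranges did not overlap either, at a log2 fold change of -0.46 ± 0.05 (adjusted p = 5.18e-12). Psma1 and Psma5 of the alpha ring were the other members whose 28-month livers all lay below every 3-month liver. Of all 15579 liver genes tested, 0.725% were separated in this way.

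The 3 catalytic subunits fell as well. Psmb5, the chymotrypsin-like subunit, had a lowest, median and highest liver value of 55.2, 71.2 and 82.4 CPM at 3 months and 38.9, 52.4 and 61.0 CPM at 28 months. Its log2 fold change was -0.44 ± 0.06 (adjusted p = 1.41e-09). Psmb7, the trypsin-like subunit, had 74.3, 101 and 108.5 CPM and then 53.3, 71.5 and 84.6 CPM, a log2 fold change of -0.46 ± 0.05 (adjusted p = 1.85e-12). Psmb6, the caspase-like subunit, had 107, 130 and 150 CPM and then 82.8, 108 and 127 CPM, a log2 fold change of -0.29 ± 0.05 (adjusted p = 3.27e-07). In all 3 the ranges overlapped, with the median at 28 months below the lowest young liver for Psmb5 and Psmb7.

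Nfe2l1 acts through the antioxidant response element, whose core is TGACNNNGC, and interferon through a response element searched here as GAAA, any 2 bases and GAAA. RefSeq gave promoter windows on build GRCm38.p6, from 250 bases before to 50 bases after the gene start, for 35 of the 42 members. The antioxidant core was found on either strand in 6 of these 35 (17.1%), against 14.0% of all genes with a window and 12.4% of all windows. The windows of Psmb5 and Psmb6 held a match 47 and 9 bases before the start. Their last 100 bases before the start are shown because both genes encode catalytic subunits that fell in the liver. Psmb5 is at chr14:54617996-54618095 on the minus strand and Psmb6 at chr11:70525257-70525356 on the plus strand, and capitals mark the match.
Psmb5: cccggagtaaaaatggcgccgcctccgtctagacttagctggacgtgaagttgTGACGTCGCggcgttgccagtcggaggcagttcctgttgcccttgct
Psmb6: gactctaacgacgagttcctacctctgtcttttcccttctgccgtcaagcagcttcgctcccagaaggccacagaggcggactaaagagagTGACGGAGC

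The other 4 members with the antioxidant core were an ATPase (Psmc6), a lid subunit (Psmd12), an assembly chaperone (Psmd9) and a nuclear activator (Psme4). Psmc6, Psmd12 and Psme4 fell in the old liver, at log2 fold changes of -0.26, -0.29 and -0.41, and Psmd9 did not pass the test (0.03). A stretch of 30 bases around each match is shown, on the strand that reads the motif: chr14:45329586-45329615, minus, for Psmc6, chr11:107479278-107479307, minus, for Psmd12, chr5:123228148-123228177, plus, for Psmd9, and chr11:30771757-30771786, minus, for Psme4.
Psmc6: gagcaatgccTGACTTAGCtactggctggc
Psmd12: gtctgaggggggcaaatgTGACACAGCaga
Psmd9: tatctagccggTGACCCCGCccacttccaa
Psme4: gctcttctggTGACGCTGCagccgcagcgc

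The median liver log2 fold change was -0.29 for members with the antioxidant core and -0.29 for those with a window but no match. The letters CCAAT, bound by the NF-Y factor, were found in 13 of the 35 members (37.1%), against 41.1% of all genes with a window and 37.4% of all windows. The median liver log2 fold change with and without CCAAT was -0.31 and -0.29. A match shows only that the letters are in the window.

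The lower values in the liver appeared at the later ages. Between 9 and 3 months and between 15 and 3 months 0 members were called, with 0 and 5 at an unadjusted p under 0.05. DESeq2 and voom called 0 members in both comparisons too. Of all liver genes, 4.69% and 7.32% were called there in edgeR. Between 24 and 3 months, 33 members passed, 30 lower and 3 higher, where 49% of all genes were called, 25% higher and 24% lower. In preps 1, 2 and 3 alone 1, 3 and 36 members were called at medians of -0.10, -0.11 and -0.29, where 5.83%, 15.5% and 33.4% of all genes were called. From 15 to 24 months 24 members fell and 1 rose, against a background of 36% in either direction, 14.4% lower and 21.6% higher, and 0, 3 and 16 members were called in the preps alone, where 0.0193%, 16.7% and 8.09% of all genes were. From 24 to 28 months 20 members fell further, against 15.3% of genes in either direction and 9.13% lower. That last count was 2 with a score of circadian clock genes in the model, 10 with only the 2 ages fitted, and 11, 0 and 0 in preps 1, 2 and 3 alone. The share of all genes called was 1.76% with the score, 7.57% with the 2 ages, and 16.2%, 0% and 1.24% in the preps. The median over the members from 24 to 28 months was -0.13 in edgeR over all preps, -0.12 with the clock score, and -0.20, -0.18 and -0.02 in the preps.

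**Figure D1:**
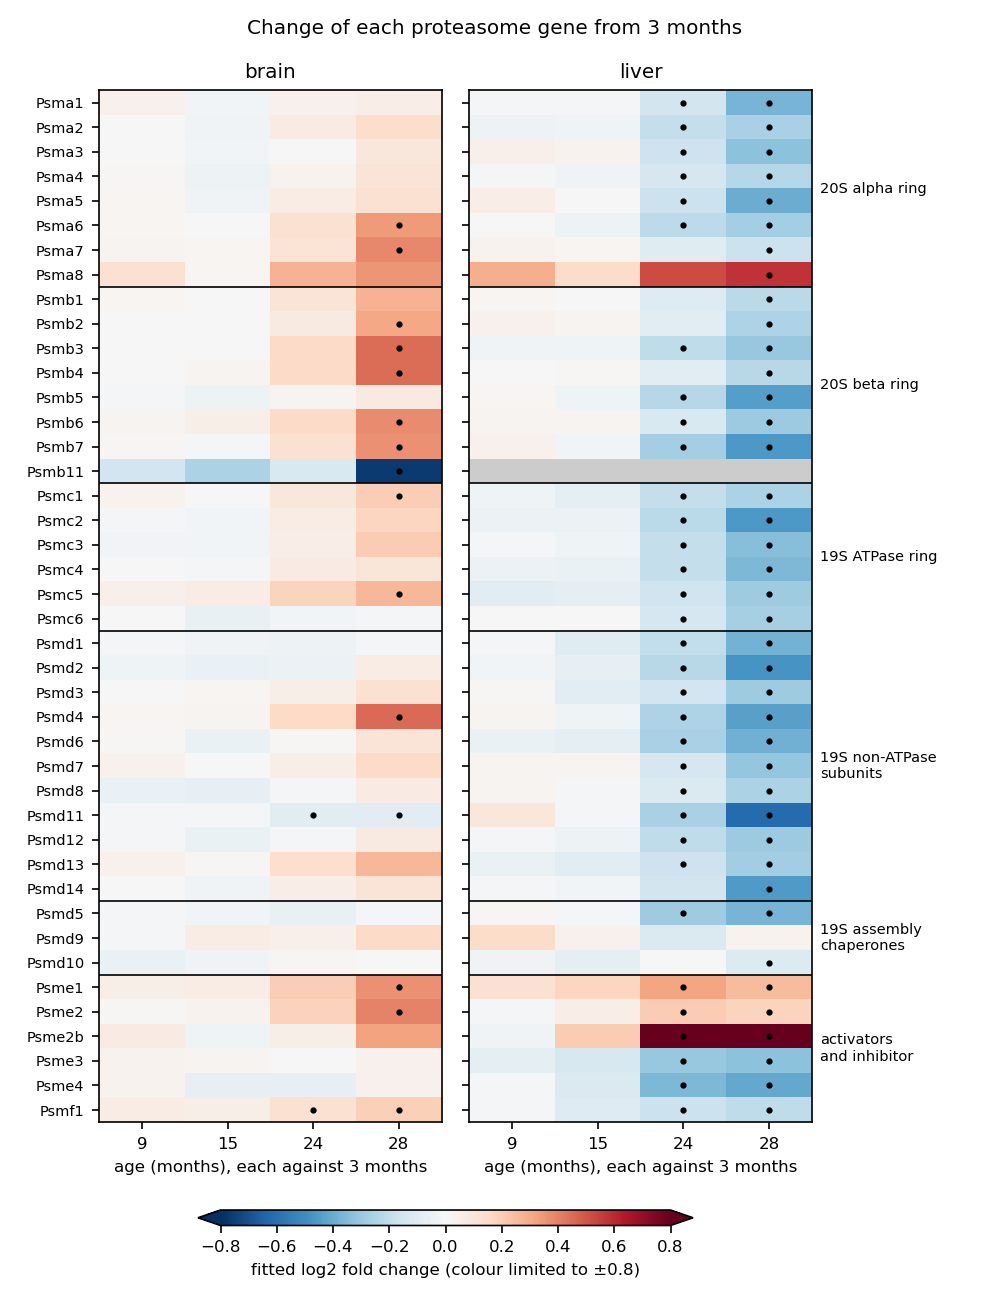
Heat map of the fitted log2 fold change of each of the 42 members at 9, 15, 24 and 28 months, each against 3 months, in brain (left) and liver (right), with a dot where the adjusted p was under 0.05 and grey for Psmb11, not tested in the liver. The liver shows 33 dots at 24 months and 40 at 28 months, most of them blue (lower), and the brain 2 and 15.

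The mean level of the 31 core members in each library shows the same course. Relative to the 3-month mean, liver libraries stood on the log2 scale at -0.002 ± 0.088 (SD, n = 16) at 9 months, -0.03 ± 0.10 (n = 16) at 15 months, -0.18 ± 0.12 (n = 17) at 24 months and -0.33 ± 0.14 (n = 18) at 28 months. Every 28-month liver was below the 3-month mean, from -0.68 to -0.16, while 3-month livers ranged from -0.20 to 0.14. Without replicate 9 the 28-month mean was -0.31 ± 0.11 (n = 17).

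**Figure D2:**
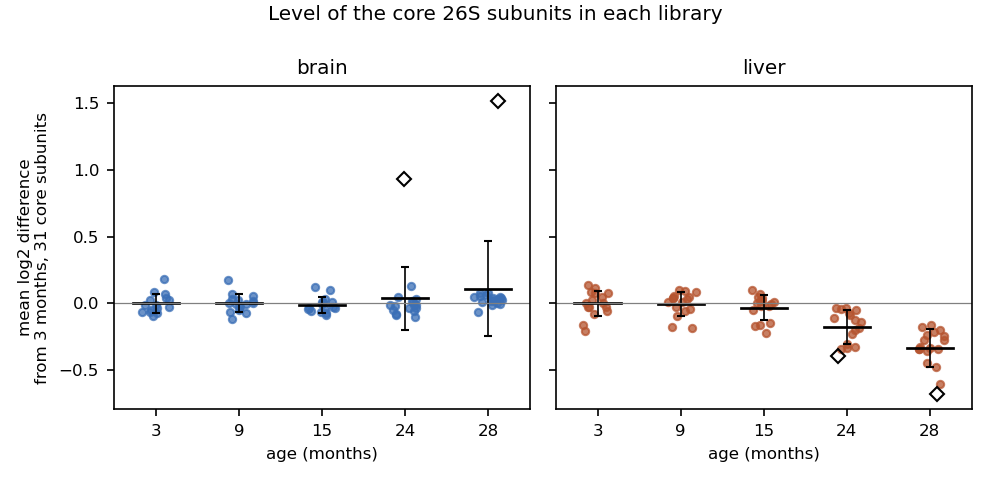
Mean log2 difference from the 3-month mean over the 31 core members in each library (points), by age in months, in brain and liver, with the group mean (line) and SD (bar). Open diamonds are the 4 libraries that stand apart. In the liver the points sink at 24 and 28 months to means of -0.18 and -0.33, and in the brain the diamonds lie at 0.93 and 1.52 above otherwise level groups.

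The liver result was measured again within preps and with other libraries left out. The median of the members between 28 and 3 months was -0.28, -0.29 and -0.32 in preps 1, 2 and 3 alone, with 29, 29 and 34 members lower. Of all genes 39.9%, 15.6% and 42.2% were called there, in either direction. Psme2b was called higher in prep 1, and Psme1, Psme2, Psme2b and Psma8 in prep 3 but not in prep 2. Without the 2 liver libraries that stand apart, 36 were lower and 3 higher, with a median of -0.28, where 61.5% of all genes were called. With the clock score in the model, 36 were lower and 3 higher, with a median of -0.30, where 52.6% of all genes were called. That score rose in the old liver from a median of -1.12 at 3 months to 1.52 at 28 months.

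Immune cell markers also moved with age in the liver. All 8 macrophage markers, all 8 B and plasma cell markers and 7 of 8 T cell markers rose between 3 and 28 months. Of all liver genes 31.9% were called higher. Without the 2 liver libraries that stand apart these counts were the same, and 1 T cell marker was lower. Of 5 red blood cell markers 2 were then higher and 1 lower. The macrophage list summed to between 236.5 and 859 CPM at 3 months (median 281 CPM) and between 377 and 2076 CPM at 28 months (median 761 CPM). The T cell list went from between 4.70 and 34.9 CPM to between 10.3 and 47.0 CPM, and the B and plasma cell list from between 19.97 and 87.1 CPM to between 106.6 and 1897 CPM. No marker of these lists was at 0 in every library, and the lists' part in the proteasome results was not tested. Of the 8 liver markers 6 were not called and Ttr and Serpina1a fell.

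In the liver 4 members rose: Psme1 and Psme2 of the interferon-induced cap, the Psme2 copy Psme2b, and Psma8. Psme1, the alpha subunit of PA28, had lowest, median and highest liver values of 65.0, 89.6 and 118 CPM at 3 months and 84.6, 104 and 140 CPM at 28 months. The groups overlapped widely, with a log2 fold change of 0.26 ± 0.07 (adjusted p = 0.000548). Psme2, the beta subunit, had 55.7, 68.7 and 90.0 CPM and then 57.4, 76.0 and 104.5 CPM, a log2 fold change of 0.18 ± 0.06 (adjusted p = 0.0136). Within preps, Psme1 stood at 0.23, 0.10 and 0.41, and Psme2 at 0.17, -0.01 and 0.35, and only prep 3 alone passed the test for either.

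Psme2b is a near-identical copy of Psme2 on chromosome 11, whose exons overlap 9930111J21Rik1 on the same strand, and how shared reads were counted was not stated, so its value is uncertain. It held between 4 and 37 counts in 3-month livers and between 8 and 86 at 28 months. Its lowest, median and highest values were 0.167, 0.282 and 1.11 CPM at 3 months and 0.325, 0.802 and 2.33 CPM at 28 months. The log2 fold change was 1.48 ± 0.26 (adjusted p = 1.38e-06). In preps 1, 2 and 3 alone Psme2b stood at 1.92, 0.81 and 1.52, and prep 2 did not pass the test (adjusted p = 0.258 in edgeR). Psma8, the alpha subunit of the testis, had 0.160, 0.656 and 1.40 CPM and then 0.485, 0.967 and 2.74 CPM, a log2 fold change of 0.58 ± 0.23 (adjusted p = 0.0272). In preps 1, 2 and 3 alone it stood at 0.03, 0.54 and 1.24, and only prep 3 passed the test (adjusted p = 0.963, 0.301 and 0.0139). Without the 2 liver libraries that stand apart it was 0.50 (adjusted p = 0.0597). Of the 4 testis markers, Prm2 and Tnp1 were at 0 in every liver library and the list summed to at most 0.377 CPM; their part in the Psma8 value was not tested.

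The other activators went with the core. Psme3 had liver values from 56.3 to 84.8 CPM with a median of 62.1 CPM at 3 months, and from 43.2 to 63.3 CPM with a median of 51.1 CPM at 28 months, a log2 fold change of -0.33 ± 0.06 (adjusted p = 1.42e-06). Psme4 went from 113 to 154 CPM with a median of 128 CPM to between 79.6 and 124 CPM with a median of 97.3 CPM, at -0.41 ± 0.05 (adjusted p = 1.76e-10). Psmf1 ranged from 29.3 to 37.5 CPM with a median of 32.3 CPM and then from 25.1 to 33.6 CPM with a median of 28.3 CPM, at -0.20 ± 0.04 (adjusted p = 1.76e-05). All 3 ranges overlapped between the ages. Psme3, Psme4 and Psmf1 had reached nearly these levels by 24 months, where their log2 fold changes were -0.30, -0.36 and -0.17. Among the assembly chaperones of the 19S particle, Psmd5 (-0.37) and Psmd10 (-0.11) fell and Psmd9 (0.03, adjusted p = 0.759) did not pass.

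**Figure D3:**
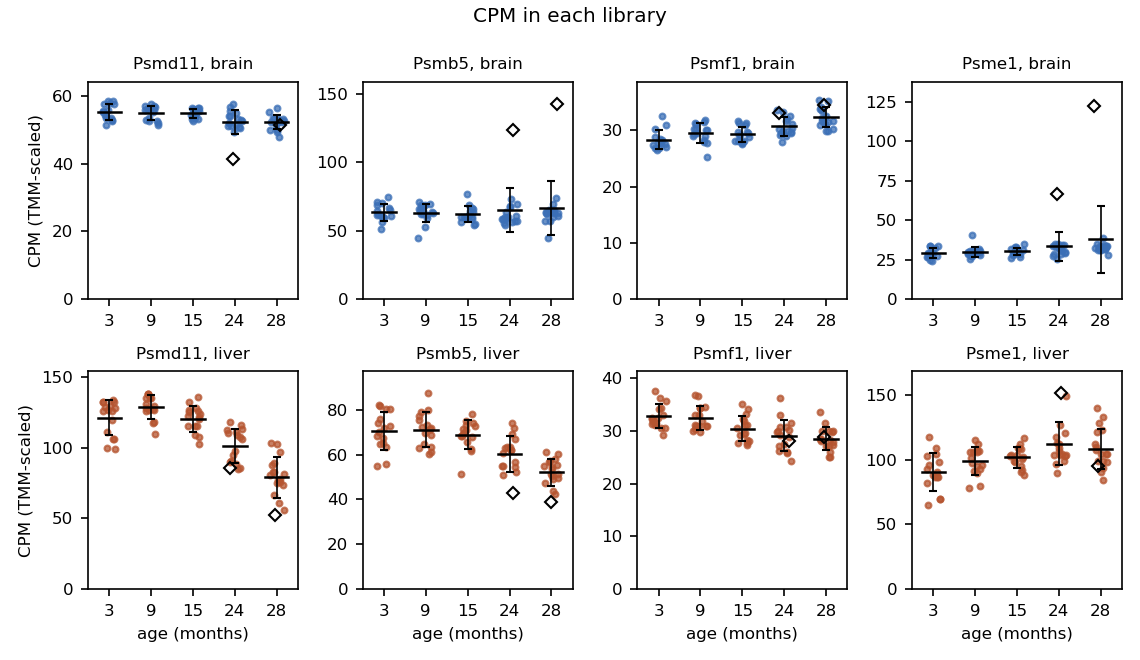
CPM in each library (points) by age in months for Psmd11, Psmb5, Psmf1 and Psme1 in brain (top) and liver (bottom), with the group mean (line) and SD (bar), and open diamonds for the libraries that stand apart. Psmd11 and Psmb5 decline in the liver at 24 and 28 months, Psmf1 goes down in the liver and up in the brain, and the highest brain point of Psme1 is 122 CPM in replicate 15.

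In the brain fewer members were called, and the size of many of the called increases rested on 1 library. Between 28 and 3 months, 15 of 42 members were called, 13 higher and 2 lower, where 28.3% of 18711 genes were called, 16.3% higher and 12% lower. The median log2 fold change was 0.15, against 0.01 over all tested genes. Without 28 months replicate 15, 4 members were called, with a median of 0.05: Psmf1 and Psme1 higher and Psmd11 and Psmb11 lower. Of all genes 29.4% were called without it. Without both brain libraries that stand apart, 14 were called, 10 higher and 4 lower, with a median of 0.04, and 9 of the 15 kept their call and direction, where 34.1% of all genes were called. Leaving out 3 months replicate 16 gave 9 called members, where 24.8% of all genes were called. In preps 1, 2 and 3 alone the medians were 0.01, 0.05 and 0.34, and replicate 15 belongs to prep 3. With the clock score in the model 12 members were called, 3 higher and 9 lower, with a median of -0.11, where 27.5% of all genes were called. The score of replicate 15 was the highest of the 82 brain libraries, at 4.63, where the median at 28 months was 0.85.

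Psmf1 had the smallest p among the brain members. Its lowest, median and highest brain values were 26.5, 27.8 and 32.5 CPM at 3 months and 29.9, 31.9 and 35.3 CPM at 28 months. The ranges overlapped, and the log2 fold change was 0.19 ± 0.03 (adjusted p = 3.8e-07). It was 0.18, 0.15 and 0.23 in the 3 preps and 0.19 without the 2 brain libraries (adjusted p = 1.27e-07). Psmd11 had 51.5, 55.3 and 58.6 CPM and then 47.7, 52.5 and 56.3 CPM, a log2 fold change of -0.08 ± 0.02 (adjusted p = 0.00716), and -0.08 without the 2 libraries. Thus Psmd11 was lower at 28 months in both tissues, by a smaller step in the brain. Psmb11 was near the floor of 3 counts in the brain, with 7 to 22 counts per library at 3 months and 1 to 14 at 28 months, where 5 of 18 libraries were at the floor. Its median went from 0.244 to 0.124 CPM, a fitted log2 fold change of -0.76 ± 0.23 (adjusted p = 0.00996), and -0.81 without the 2 libraries (adjusted p = 0.00421).

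Psme1 had brain values of 24.1, 28.7 and 33.9 CPM at 3 months and 27.9, 32.9 and 122 CPM at 28 months, lowest, median and highest. The log2 fold change was 0.37 ± 0.11 (adjusted p = 0.00747) with all libraries and 0.18 without the 2 that stand apart (adjusted p = 0.00112). Psme2 had 16.3, 18.5 and 22.0 CPM and then 17.7, 20.2 and 117 CPM, and a log2 fold change of 0.40 ± 0.15 (adjusted p = 0.0329). Without the 2 libraries it was 0.10 (adjusted p = 0.0672). With the clock score the signs turned, to -0.0049 for Psme1 and -0.15 for Psme2, neither called. For Psme2b, Psme3, Psme4 and Psma8 the brain log2 fold changes were 0.32, 0.04, 0.03 and 0.35, none called over all libraries. Psme2b (0.36) and Psme3 (0.05) were called higher without the 2.

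The 3 highest fold changes among called brain members were those of Psmd4, Psmb3 and Psmb4. Psmd4, which encodes a ubiquitin receptor, had 74.0, 81.5 and 89.7 CPM at 3 months and 83.0, 86.6 and 567 CPM at 28 months. The highest value was replicate 15, and the highest of the others at 28 months was 92.98 CPM. The log2 fold change was 0.46 ± 0.15 (adjusted p = 0.0179), and 0.10 without the 2 libraries (adjusted p = 0.00295). Psmb3, a structural beta subunit, had 36.9, 40.9 and 50.8 CPM and then 39.6, 46.0 and 269.7 CPM, and again replicate 15 was the highest. It gave 0.44 ± 0.15 (adjusted p = 0.0173) and 0.13 without them (adjusted p = 0.0167). Psmb4, another beta subunit, gave 0.44 ± 0.17 (adjusted p = 0.0385) and 0.04 without them (adjusted p = 0.469). Its median went from 93.7 to 98.8 CPM while replicate 15 held 702.5 CPM. Of the catalytic genes, Psmb6 and Psmb7 were called at 0.38 and 0.37 over all libraries, and stood at 0.07 each without the 2 libraries (adjusted p = 0.216 and 0.105). Psmb5 was not called, at 0.07 and -0.02. With the clock score in the model the other 5 had the opposite sign, at -0.16 for Psmd4, -0.13 for Psmb3, -0.24 for Psmb4, -0.19 for Psmb6 and -0.17 for Psmb7, none called. In prep 1 alone Psmb4 (-0.053) and Psmb6 (-0.016) had it too.

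At younger ages few or no brain members were called. Counts were 0 between 9 and 3 months and 0 between 15 and 3 months, with 0 and 0 at an unadjusted p under 0.05 and 0 by DESeq2 and voom, where 0.315% and 0.871% of genes were called. Between 24 and 3 months Psmf1 rose (0.12 ± 0.03, adjusted p = 0.00377) and Psmd11 fell (-0.08 ± 0.02, adjusted p = 0.022), against 10.1% of all genes, 6.19% higher and 3.86% lower. Without the 2 libraries Psmf1 stood at 0.11 and Psmd11 at -0.06, both still called, and Psmd2 and Psmd8 were called lower as well, where 17.1% of all genes were called. From 15 to 24 months and from 24 to 28 months 0 members were called by edgeR, with 2 and 7 at an unadjusted p under 0.05. DESeq2 called 0 in both and voom 1 and 3, where edgeR called 0.732% and 1.09% of all genes. The core level of brain libraries at 28 months was 0.11 ± 0.35 above the 3-month mean on the log2 scale (SD, n = 18) and 0.03 ± 0.04 without replicate 15 (n = 17).

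The change with age differed between the tissues for most members. In a fit over both tissues, the liver change less the brain change from 3 to 28 months was called for 36 of 41 members, 35 lower and 1 higher. The background was 49.2% of 14035 genes, 27.2% higher and 21.9% lower. The median difference was -0.42, against 0.03 over all genes. Without the 4 libraries that stand apart 36 members were called, 35 lower, with a median of -0.33, where 50.1% of all genes were called. Within preps 26, 3 and 34 members were called, at medians of -0.30, -0.29 and -0.65, where 27.3%, 6.35% and 31.4% of all genes were called. With library totals in place of TMM factors, 34 were called, 33 lower, with a median of -0.33 against 0.10 over all genes and 48.4% of all genes called, and Psmc6 (adjusted p = 0.0579) and Psmd8 (adjusted p = 0.0577) were not. Psmd4 (-0.83 ± 0.15, adjusted p = 1.9e-06) and Psmb7 (-0.78 ± 0.14, adjusted p = 1.74e-06) had the lowest values over all libraries. Without the 4 libraries they stood at -0.51 (Psmd4) and -0.515 (Psmb7), beside -0.51 for Psmd11, so that the gap to the other members was smaller. Psme2b (1.19 ± 0.31, adjusted p = 0.00088) was the one member with a higher change in the liver, at 0.98 without the 4 libraries (adjusted p = 0.00109). Psma8, Psmd9, Psmd10, Psme1 and Psme2 were not called. The 95% interval of the difference ran from -0.31 to 0.17 for Psme1 and from -0.47 to 0.13 for Psme2. Psmc6, an ATPase, had the smallest called difference (-0.21 ± 0.07, adjusted p = 0.00718, and -0.25 without the 4 libraries). Its median went from 88.0 to 73.5 CPM in the liver, in overlapping ranges of 77.2 to 94.7 CPM and 53.8 to 85.4 CPM. In the brain it was 69.0 and 69.1 CPM, in ranges of 61.9 to 88.2 CPM and 54.8 to 93.02 CPM.

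**Figure D4:**
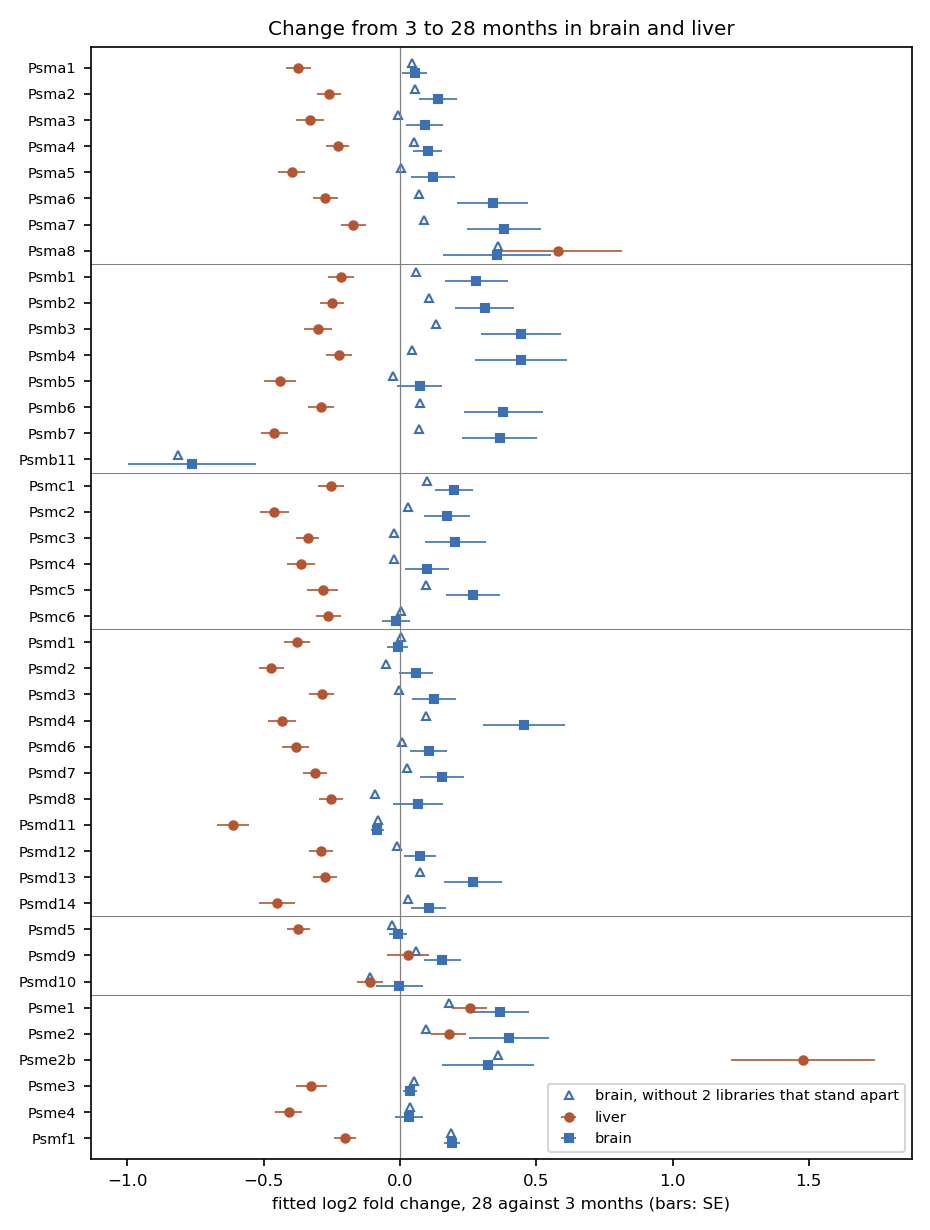
Fitted log2 fold change of each member between 28 and 3 months (horizontal axis, bars are SE) in liver (circles) and brain (squares), with open triangles for the brain without the 2 libraries that stand apart. Liver circles lie left of 0 for all core members, while the triangles of most members lie near 0. Psmf1 lies at 0.19, Psme1 at 0.18 and the low-count Psmb11, Psme2b and Psma8 farther out at -0.81, 0.36 and 0.36.

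Levels in young livers and young brains depend on how libraries of 2 tissues are scaled against each other. With TMM factors over both tissues, 39 of 41 members were higher in the liver at 3 months and 0 were lower, in a comparison where 90.1% of genes were called, 43.1% higher and 47% lower. The median was 1.00 on the log2 scale, against -0.08 over all genes. RLE scaling moved the median of all genes to 0.03 and that of the members to 1.11. With library totals alone, a scaling added after seeing the data, the median of all genes was -0.50 and that of the members 0.58, and 33 members were called higher and 3 lower. Psmd5 turned from 0.23 to -0.19 (adjusted p = 1.32e-06), and Psmc5 (-0.55) and Psme3 (-0.37) were called lower. With TMM, Psmc5 (-0.13 ± 0.08, adjusted p = 0.117) and Psme3 (0.05 ± 0.05, adjusted p = 0.325) were not called. Psmc3, Psmd7, Psmd10, Psmd14 and Psme2b were called higher with TMM but not with library totals. Psme2 (2.49 ± 0.12), Psme1 (2.25 ± 0.09) and Psma8 (1.95 ± 0.23) had the highest values with TMM, and stood at 2.07, 1.83 and 1.54 with library totals. CPM elsewhere in the text are scaled within each tissue. By these, 33 of the 41 members had a higher mean in the liver at 3 months and 8 a lower one, with a median log2 ratio of 0.39, so that levels of the 2 tissues in CPM are not to be set against each other. Per kilobase of exon, core levels at 3 months ran from 13.4 CPM for Psmd1 to 78.6 CPM for Psmb5 in the liver, and from 8.67 CPM for Psmd11 to 95.1 CPM for Psmc5 in the brain. Exon lengths here join all annotated transcripts.

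In the liver, core members went up and down together from library to library, and less so in the brain without the 2 libraries that stand apart. Within ages, the SD of a core member over liver libraries had a median of 0.14 on the log2 scale, and 0.08 after the mean of the other core members was subtracted from each library. It shrank for 31 of 31 members in the liver. Psmc3 followed the others most closely, at 0.05, and Psmd14, the enzyme that removes ubiquitin chains, least, at 0.15. These liver values are over all libraries. Without the 2 that stand apart the SD shrank for 30 of 31, with Psmc3 still lowest at 0.05 and Psmd1 highest at 0.146. In the brain without the libraries that stand apart, the median SD went from 0.08 to 0.07 and shrank for 27 of 31. The means of the ages were taken out of these values, but not those of the preps. Preps and library scaling can also make genes move together, and their part was not tested.

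The 3 immunoproteasome genes, which replace the catalytic subunits under interferon, rose in both tissues. In the liver the genes they replace fell, while in the brain Psmb6 and Psmb7 were also called higher over all libraries. Psmb8 had brain values of 2.34, 3.87 and 5.12 CPM at 3 months and 5.73, 6.71 and 29.5 CPM at 28 months, lowest, median and highest, so the groups did not overlap. The log2 fold change was 1.06 ± 0.16 (adjusted p = 3.72e-07), and 0.85 without the 2 brain libraries (adjusted p = 8.96e-12). In the liver Psmb8 went from 29.99, 34.9 and 91.7 CPM to 38.5, 64.8 and 127.5 CPM, at 0.86 ± 0.16 (adjusted p = 1.7e-06). The liver ranges overlapped. Psmb9 had medians of 1.65 and 2.73 CPM in the brain and 17.5 and 27.1 CPM in the liver. It rose by 0.76 ± 0.13 in the brain (adjusted p = 3.88e-06, and 0.71 without the 2 libraries) and by 0.50 ± 0.19 in the liver (adjusted p = 0.0175). Psmb10 had medians of 23.6 and 29.2 CPM in the brain, where replicate 15 held 319.7 CPM, and 31.3 and 50.1 CPM in the liver. It rose by 0.82 ± 0.22 in the brain (adjusted p = 0.0025) and by 0.58 ± 0.10 in the liver (adjusted p = 4.36e-07). The brain value of Psmb10 was 0.26 without the 2 libraries (adjusted p = 0.000186) and -0.12 with the clock score (adjusted p = 0.453).

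Each immunoproteasome gene was set against the subunit it replaces, as a ratio of CPM in the same library. The median ratio of Psmb8 to Psmb5 in the liver was 0.514 at 3 months and 1.25 at 28 months, 2.44 times as high. Ratios ranged from 0.367 to 1.65 at 3 months and from 0.655 to 2.29 at 28 months, and thus overlapped. For Psmb10 and Psmb7 the liver medians were 0.311 and 0.732, and for Psmb9 and Psmb6 0.137 and 0.261. In the brain the median of Psmb8 to Psmb5 went from 0.0614 to 0.116, that of Psmb9 to Psmb6 from 0.0197 to 0.0294 and that of Psmb10 to Psmb7 from 0.338 to 0.394. These ratios are of CPM and not per length, so that only their change within a tissue can be read.

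**Figure D5:**
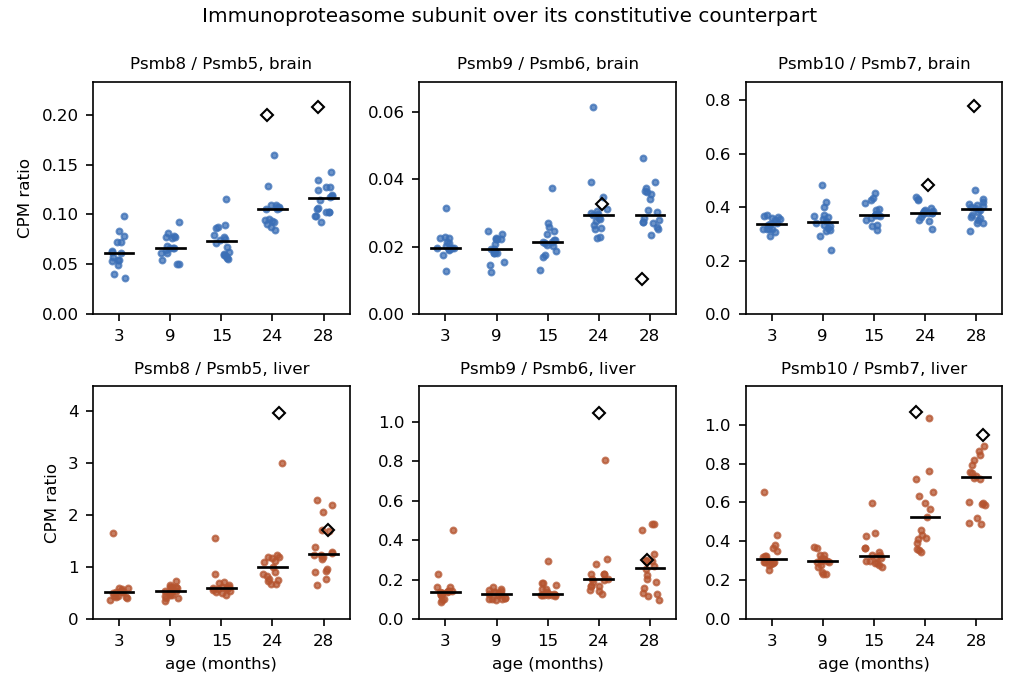
Ratio of CPM of Psmb8, Psmb9 and Psmb10 to Psmb5, Psmb6 and Psmb7 in each library (points) by age in months, in brain (top) and liver (bottom), with the median (line) and open diamonds for the libraries that stand apart. All 6 medians are higher at 28 than at 3 months, and the liver median of Psmb8 to Psmb5 goes from 0.514 to 1.25.

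Of 12 other interferon-gamma response genes around antigen processing, 7 rose in the brain and 9 in the liver and 0 fell, with medians of 0.34 and 0.59. Of all genes 16.3% and 31.9% were called higher. Without the libraries that stand apart, 10 rose in the brain and 9 in the liver. The highest were Nlrc5 in the brain (1.02 ± 0.14, adjusted p = 2.39e-08), which activates class I genes, and the GTPase gene Gbp2 in the liver (1.64 ± 0.32, adjusted p = 7.36e-06). Nlrc5 stood at 1.00 in the brain without the 2 libraries. The lowest called were Irf1 in the brain (0.20, and 0.20 without them) and B2m in the liver (0.18). The microglia and macrophage list in the brain had all 8 markers higher. It summed to between 233.6 and 316 CPM at 3 months and between 248 and 751 CPM at 28 months, none of its markers was at 0 in every library, and 3 of 5 red blood cell markers also rose. Their part in these values was not tested. The interferon response element was found in 4 of the 35 members (11.4%), against 3.99% of all genes with a window and 3.44% of all windows. The interferon-gamma site TTCNNNGAA was found in 1 of the 35 (2.86%), Psmd2, against 9.55% of all genes and 8.3% of all windows. The members with the response element were Psme1, Psmb3, Psmd4 and Psmd9, of which Psme1 rose in the liver and Psmb3 (-0.30) and Psmd4 (-0.43) fell. Their median liver log2 fold change was -0.14, and that of the members with a window but no match -0.29. The 30 bases around each match are shown to set the riser beside the others: chr14:55578493-55578522, minus, for Psme1, chr11:97703261-97703290, minus, for Psmb3, chr3:95042675-95042704, plus, for Psmd4, and chr5:123228021-123228050, plus, for Psmd9.
Psme1: agcgggaaggGAAAGCGAAAgcacagctcg
Psmb3: atggaaagcgGAAAGTGAAAagtcactgtg
Psmd4: aggcgccacaGAAATGGAAAggttggttat
Psmd9: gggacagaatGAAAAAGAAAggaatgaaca

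Most assembly chaperones of the 20S particle and most proteasome-bound proteins also fell in the liver. Of 5 assembly chaperones of the 20S particle, 4 fell and Psmg4 rose (0.16 ± 0.07, adjusted p = 0.04, but 0.0763 without the libraries that stand apart), with the lowest value for Pomp, the maturation factor (-0.38 ± 0.05, adjusted p = 6.64e-09). In the brain 0 of these 5 were called by edgeR, and Pomp stood at 0.32 ± 0.13 (adjusted p = 0.0603) and at 0.06 without the 2 libraries. Of 15 proteasome-bound proteins outside the rule, 13 fell in the liver and 0 rose, with a median of -0.28, where 30% of all genes were called lower. The deubiquitinase gene Usp14 had the lowest value (-0.53 ± 0.04, adjusted p = 7.83e-17). In the brain 2 of the 15 rose, up to 0.23 for Uchl5 (0.19 without the 2 libraries), and 3 fell, down to -0.26 for Ddi2 (-0.20 without them), where 28.3% of all genes were called.

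Nfe2l1 fell slightly in the liver (-0.18 ± 0.06, adjusted p = 0.00641) and was not called in the brain (-0.01 ± 0.04, adjusted p = 0.867). Nfe2l2, which encodes the related factor NRF2, was called in neither tissue (liver -0.08, brain 0.04). Of 13 tested transcriptional regulators and their processing factors in the liver, 5 fell and 1 rose, where 61.9% of all genes were called, so that the list held no more calls than genes at large. Vcp, whose ATPase frees the Nfe2l1 product from the membrane, had the lowest value (-0.43 ± 0.04, adjusted p = 1.34e-13) and the small Maf gene Mafk rose (0.38 ± 0.10). In the brain 4 of 14 fell and 3 rose, where 28.3% of all genes were called, and 5 fell and 4 rose without the 2 libraries. There Nfya, a subunit of the CCAAT-binding factor, fell (-0.56 ± 0.08, adjusted p = 4.62e-08) and Maff rose (0.81 ± 0.14, adjusted p = 4.12e-06), both close to this without the 2 libraries (-0.51 and 0.81), while Nfya was not called in the liver (0.01). The change of Nfya differed between the tissues (0.61 ± 0.14, adjusted p = 0.00024 in the interaction, and 0.46 without the 4 libraries). Of 6 ubiquitin and ubiquitin-activating genes, 3 fell in the liver, with Uba1 lowest (-0.35 ± 0.03, adjusted p = 3.71e-15), and Rps27a rose (0.15). In the brain Uba6 fell (-0.49, and -0.46 without the 2 libraries) and 2 rose, with Rps27a highest (0.45). Without the 2 libraries Rps27a stood at 0.15, and 1 of the 6 rose and 1 fell. Against 61.9% and 28.3% of all genes called, 4 and 3 of these 6 were called.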

How the data were processed

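The authors deposited raw counts per gene for each tissue. Cutadapt 2.8, HISAT2 2.1.0, SAMtools 1.9, featureCounts and Subread 2.0.1 and the builds GRCm38.p6 and mm10 are named in the submitters' processing notes, and the strand setting is not given in the sources used here. All columns were used. Counts were fitted per tissue with edgeR 4.0.16 in R 4.3.3 (filterByExpr, TMM, age and prep as terms, quasi-likelihood test). P-values were adjusted over all genes tested. The tissue comparisons came from 1 fit over both tissues. The SE was taken from the fold change and the F statistic. Library levels of the core used log2(CPM + 0.5). Gene coordinates and exon lengths came from GENCODE on GRCm38. Exons of 3 members overlap another gene on the same strand and of 9 on the opposite strand, among them Psmb5, Psmb7 and Psme1. Their counts may thus hold its reads or lack shared reads, and how these were counted was not stated. Libraries of 1 age came from differently numbered mice. Genes were named by a fixed rule: the 3 highest and 3 lowest called fold changes of 28 against 3 months in each tissue, the 2 highest and 2 lowest called interactions, the activators and inhibitor, the catalytic subunits, Psma8, Psmb11, the immunoproteasome genes, Nfe2l1, Nfe2l2, Pomp and the highest and lowest called gene of each further list. 1 further gene that the rule picks from the further lists is not reported here. Psma1 and Psma5, whose ages did not overlap, and members named for a motif, a spread or a marker were named after their values were seen. The members and lists were chosen with earlier results of these data known. The alternatives were RLE scaling, other filters, DESeq2 1.42.0, limma 3.58.1 (voom), single preps, 2 ages only, a replicate block, the clock score, single libraries left out and, added after seeing the data, the libraries that stand apart left out and library totals alone for the tissue comparisons. The fitting script was tested on simulated counts, with known changes at 28 months in genes of all levels. Of genes changed 1.2 times, 18% in the brain and 8% in the liver were called in the right direction. For changes of 1.5 times these shares were 83% and 71%. The simulated spread followed the trend over genes and not each gene's own, so the shares need not hold for the members.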

Additional observations from a re-analysis of the deposited data

Results flagged for a closer look

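The change from 3 to 28 months differed between liver and brain, by the interaction test in edgeR, for 36 of 41 members. Of all 14035 genes tested, 49.2% differed in this way. Values are the liver change less the brain change on the log2 scale. It was 1.19 for Psme2b, whose counts are low and whose exons overlap 9930111J21Rik1 on the same strand. Whether its counts hold reads of Psme2 was not tested. The 2 brain libraries that stand apart held 1020 and 1016 counts of Psme2 and 0 of Psme2b. The difference was -0.83 for Psmd4, -0.78 for Psmb7, -0.62 for Psmb6, -0.47 for Psmb5 and -0.49 for Psmd11. Among the activators and the inhibitor it was -0.32 for Psme3, -0.40 for Psme4 and -0.35 for Psmf1, which fell in the liver and rose in the brain. Psmd4, Psmb6 and Psmb7 also fell in the liver and were called higher in the brain over all libraries. Without the libraries that stand apart, Psmd4 and Psme3 did so among these genes, beside Psmf1. Without the 4 libraries that stand apart the differences were -0.51 for Psmd4, -0.515 for Psmb7, -0.34 for Psmb6, -0.40 for Psmb5 and -0.51 for Psmd11, so that Psmd4, Psmb7 and Psmb6 moved by over 1.5 times. They were 0.98 for Psme2b, -0.37 for Psme3, -0.44 for Psme4 and -0.39 for Psmf1.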

How the results depend on the processing

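The liver count between 28 and 3 months stayed between 38 and 40 when each of 34 libraries was left out in turn. With none left out, 61.9% of all liver genes were called. In the brain the count ran from 4 to 18 over 33 libraries. It was 4 without 28 months replicate 15, where 29.4% of all genes were called. The brain count was 8 without a filter on low counts, 9 with DESeq2, 1, 0 and 1 in preps 1, 2 and 3 alone and 1 with only the 2 ages. Of all genes 13% were called without the filter, 30.5% with DESeq2, 10.6% and 6.36% in preps 1 and 3, 368 of 18769 genes in prep 2 and 17% with the 2 ages, against 28.3%. Replicate numbers do not pair mice of different ages: libraries of the same number had a median correlation of deviations of 0.02 in the brain and 0.01 in the liver, and 7 of 82 and 1 of 83 libraries were most like their own number. With the replicate block the brain count was 8 and the liver count 39, where 25.9% and 60.9% of all genes were called. With the mouse as the replicate block, 35 members differed between the tissues. The fit without this block called 49.2% of all genes.

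Brain members between 24 and 3 months numbered 1 without a filter, 6 with voom, 0 in each prep alone (0, 0 and 0), 1 with the 2 ages only and 4 without the libraries that stand apart. Of all genes 3.89%, 26.5%, 1.19%, 0.597%, 0.486%, 12.5% and 17.1% were called in these fits, in this order. Brain counts of 0 became 1 (24 against 15 months) and 3 (28 against 24 months) with voom, and from 24 to 28 months 6 with the clock score and 1 without the libraries apart, where 4.53%, 4.8%, 14.3% and 3.58% of all genes were called. Liver members between 24 and 3 months were 1 in prep 1 and 3 in prep 2, and between 24 and 15 months 0, 3 and 16 in the preps. Between 28 and 24 months they were 2 with the clock score, 11, 0 and 0 in the preps and 10 with 2 ages. The difference between tissues held for 3 members in prep 2. The clock score turned the brain changes of Psmb4 (-0.24), Psmb3 (-0.13), Psmd4 (-0.16), Psmb6 (-0.19), Psmb7 (-0.17), Psme1 (-0.0049) and Psme2 (-0.15), none of them called. Prep 1 alone turned Psmb4 (-0.053) and Psmb6 (-0.016) in the brain, and prep 2 turned Psme2 in the liver (-0.013). Apart from fits with fewer libraries, the cause was not tested. Depth limits Psma8, Psmb11 and Psme2b, with few counts per library.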
